A study of Mus musculus with 2 samples.

Results

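The glucocorticoid receptor, its close relative the mineralocorticoid receptor and a set of genes that corticosteroids are known to control were read in the dorsal root ganglion (DRG) neuron preparations of immunized mice. The 10 genes were taken by symbol: the receptor genes Nr3c1 and Nr3c2, the corticosterone-activating enzyme Hsd11b1, and the target genes Fkbp5, Sgk1, Tsc22d3, Zbtb16, Klf9, Ddit4 and Errfi1. They account for 18 of the 35034 RefSeq transcript rows and 10 of the 24411 genes in the data. Values are in TPM, a measure of transcript abundance that corrects reads for transcript length and has the same total, 1000000, in every library. Rows of one symbol were summed to a gene total.

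Both groups were male C57BL/6 mice (C57BL/6J in the study methods) aged 6 to 8 weeks injected intraperitoneally on days 0 and 14 with 200 µl of saline holding 50% alum, an adjuvant made of aluminium salts. The alum + KLH-immunized mice received 100 µg of keyhole limpet hemocyanin (KLH), a mollusc protein used as a foreign antigen, with each injection, and the alum-injected mice received none. Thoracic and lumbar ganglia were taken 14 days after the second injection, digested with enzymes at 37°C, enriched for neurons and depleted of B lymphocytes. Neurons of 10 mice were pooled into 1 library per group, so there is no measure of the spread between mice, no difference has a replicate check, and immunization and library cannot be told apart. The label of the control library calls it naïve and also given only alum, and it was treated as alum-injected.

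Corticosteroid hormones enter the cell and bind the glucocorticoid receptor, which is held in the cytoplasm by heat shock proteins and then moves to the nucleus to switch genes on or off. The mineralocorticoid receptor binds the same hormones and recognizes the same DNA element. In sensory ganglia both receptors are known from neurons and from the glia around them, and glucocorticoids are used as anti-inflammatory and pain-relieving drugs.

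Both receptors and 6 of the 7 target genes were expressed above 3 TPM, the detection threshold of the study, in both pools. The target Zbtb16 lay at the threshold and the enzyme gene Hsd11b1 below it. With 1 TPM added to each value, no gene of the 10 was 1.5-fold apart between the pools. The log2 ratio of alum + KLH over alum on this scale ran from -0.20 for Ddit4 to 0.25 for Zbtb16. The added 1 TPM understates the difference of low genes: on TPM as deposited, Hsd11b1 stood at 151% and Zbtb16 at 126% of the value with alum alone. Of the 11648 genes that passed 3 TPM in either pool, 298 were at least 1.5-fold apart, which is 2.56%. A log2 ratio of 0.32 or more in either direction was reached by 7.68% of those genes and by 0 of the 10. As 9 of the 10 passed 3 TPM in either pool, a count of 0 is close to that background and is not a result about these genes. Of the 10 genes, 6 had the higher value in the alum + KLH-immunized pool and 4 the lower value. Among the 9 that passed 3 TPM in either pool, 5 were higher and 4 lower, and 43.6% of all genes above 3 TPM were higher there. The median ratio was 0.059 over those 9 and 0.072 over the 10 genes, beside -0.020 over all genes above 3 TPM. The sign of the median over the 10 genes depended on the scaling, as it was -0.010 with TPM taken relative to the housekeeping gene Hprt. It was 0.026 with TPM rescaled over protein coding rows, and 0.024 both with coding rows alone and for genes above 10 TPM.

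**Figure D1:**
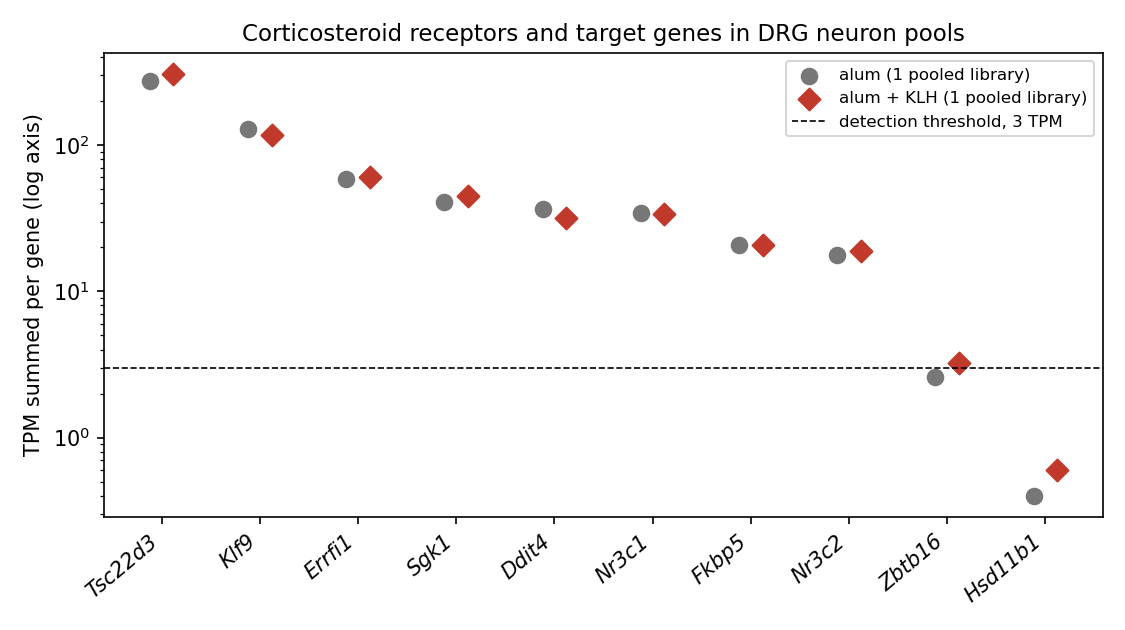
TPM summed per gene (log axis) for the 10 genes in the alum-injected pool (grey circles) and the alum + KLH-immunized pool (red diamonds), 1 pooled library each, with no error bars because there are no replicates. Levels run from 0.400 TPM for Hsd11b1 to 305.4 TPM for Tsc22d3, the markers of each pair lie close together, and Zbtb16 straddles the dashed line at 3 TPM.

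The preparations carried the marker genes of DRG neurons. All 11 neuron markers were above 3 TPM in both pools and summed to 16954 TPM with alum alone and 16757 TPM with KLH added. Satellite glia markers, 8 of 8 above the threshold, summed to 1254 and 1148 TPM, and Schwann cell markers, 5 of 11 above it in both pools, to 1517 and 1453 TPM. Fibroblast and mural cell markers (4 of 9 above it in both pools) summed to 263.2 and 253.1 TPM and endothelial markers (3 of 8) to 22.9 and 17.4 TPM. Macrophage markers (1 of 11) summed to 12.0 and 11.4 TPM, the 5 T lymphocyte markers in the data (0 above it in both pools) to 4.64 and 4.85 TPM with Cd3g at 0, and the 5 B lymphocyte markers (0 of 5) to 0.754 and 0.234 TPM with Cd79b and Blk at 0. Neurons and glia are thus mixed in each value given here, fewer cells of a type and less RNA per cell cannot be told apart, and the part of these markers in the differences between pools was not tested.

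The receptor genes were both above the detection threshold in both pools. Nr3c1, the glucocorticoid receptor, was at 34.4 TPM with alum alone and 33.7 TPM with KLH added. Nr3c2, the mineralocorticoid receptor, was at 17.7 and 18.9 TPM. The glucocorticoid receptor transcript was thus the more abundant of the pair in each pool, 1.94 times the mineralocorticoid receptor in the alum-injected and 1.78 times in the alum + KLH-immunized pool. As no replicate error exists, the log2 ratios are given together with the SD that the 500 genes closest in abundance showed for theirs, which describes these 2 libraries and does not test the immunization. The log2 ratio was -0.03 for Nr3c1 (SD among genes of similar abundance 0.16) and 0.08 for Nr3c2 (0.31). This SD did not follow abundance evenly, as it was 0.18 for Fkbp5, at 20.8 TPM with alum alone. It is thus a rough measure wherever it is given. Each receptor has a single row in the data: NM_008173 for Nr3c1, with 8 exons and 6327 bases, and NM_001083906 for Nr3c2, on chromosome 8 from 76902288 to 77245007 of GRCm38 on the plus strand, with 9 exons and 5675 bases.

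Hsd11b1 encodes the 11-beta-hydroxysteroid dehydrogenase that regenerates active corticosterone inside cells. Its total was 0.400 TPM with alum alone and 0.603 TPM with KLH added, below the detection threshold in both, and 63.0% and 59.8% of all genes had a higher level. NM_001044751 (chromosome 1, 193221634 to 193242629, minus strand) carried the whole value, and the other row, NM_008288, was listed at 0 in both pools. The log2 ratio of 0.20 compared with an SD of 0.23 among genes of similar abundance. It became 0.49 when 0.1 TPM was added to each value and not 1 TPM.

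Tsc22d3, which encodes the glucocorticoid-induced leucine zipper protein GILZ, had the highest level of the 10 genes. Its total was 273.8 TPM with alum alone and 305.4 TPM with KLH added, and only 3.08% and 2.70% of all genes were higher. It made up 44.6% and 48.0% of the summed TPM of the 10 genes. Most of this total sat on a transcript that RefSeq classes as noncoding. That row, NR_122039, was at 239.0 and 271.7 TPM, which is 87.3% and 89.0% of the gene. The protein coding row NM_010286 was at 34.8 and 33.6 TPM, and the other coding row, NM_001077364, was listed at 0 in both pools. The difference of the total therefore rested on the noncoding row. The log2 ratio was 0.16 for the gene total, 0.18 for NR_122039 and -0.05 for NM_010286, so with protein coding rows alone the sign of the gene turned. All of these are smaller than the SD among features of similar abundance (0.19 for the total and for NR_122039, 0.25 for NM_010286).

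The noncoding and the coding row of Tsc22d3 share most of their sequence, which bears on how far their values can be separated. In the GENCODE M21 annotation of GRCm38, the assembly of mm10, NR_122039 lies on chromosome X from 140539528 to 140542668 on the minus strand and NM_010286 from 140539528 to 140543187, both with 3 exons. Of the 1760 stretches of 31 bases in NR_122039, 8.92% occur in neither of the other Tsc22d3 rows. For NM_010286 the share is 17.4% of 1944. Reads from the remainder were divided by kallisto, a program that assigns reads to transcripts by such short matches. A further 2.67% of NR_122039 and 3.14% of NM_010286 also occur in transcripts of other genes, and Gm8812 shared the most.

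**Figure D2:**
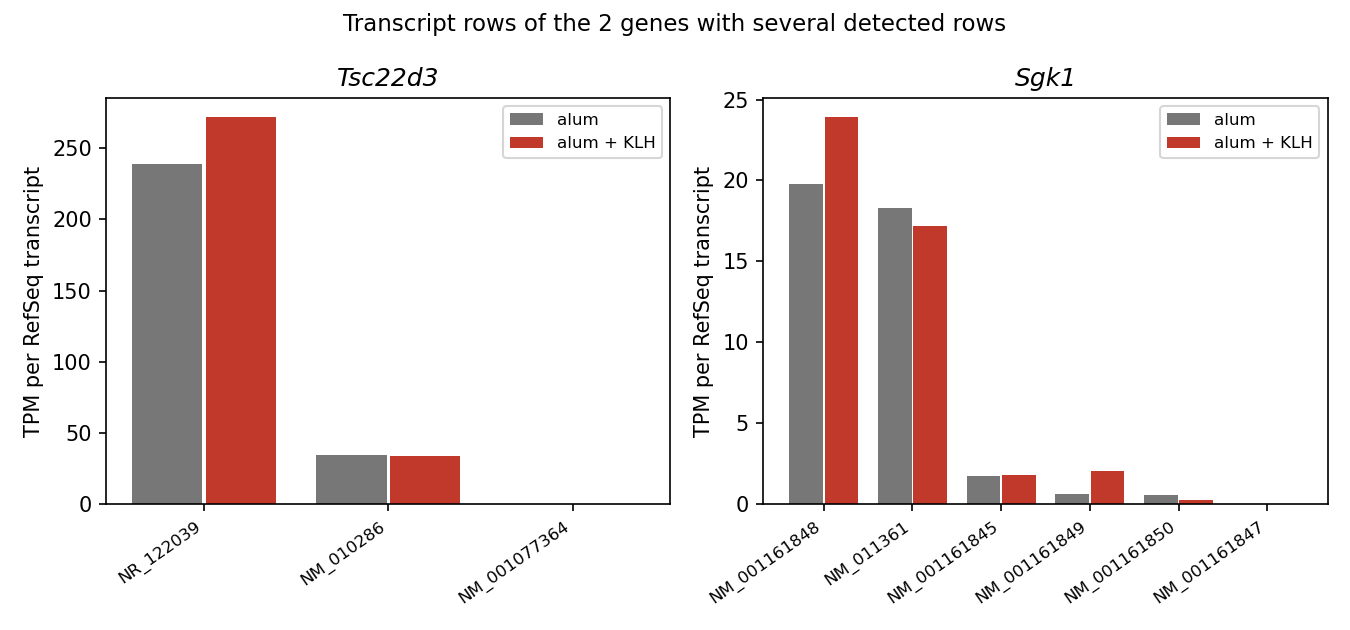
TPM per RefSeq transcript for Tsc22d3 (left) and Sgk1 (right) in the alum-injected pool (grey bars) and the alum + KLH-immunized pool (red bars), 1 pooled library each. NR_122039 towers over the coding rows of Tsc22d3 at 239.0 and 271.7 TPM, while NM_001161848 and NM_011361 carry most of Sgk1.

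Sgk1 encodes the serum and glucocorticoid-regulated kinase, which acts on ion channels and transporters. The gene total was 41.0 TPM with alum alone and 45.2 TPM with KLH added. The log2 ratio of 0.14 was slightly larger than the SD of 0.12 among genes of similar abundance. Sgk1 is read from several start sites, and its 6 rows were not equally used. NM_001161848 was at 19.8 and 23.9 TPM, or 48.2% and 52.9% of the gene. NM_011361 was at 18.3 and 17.2 TPM, or 44.6% and 38.0%. The remaining rows were below 3 TPM in both pools, with NM_001161845 at 1.74 and 1.83 TPM, NM_001161849 at 0.651 and 2.02 TPM, NM_001161850 at 0.582 and 0.243 TPM, and NM_001161847 listed at 0. The 2 main rows thus differed in opposite directions, with log2 ratios of 0.26 for NM_001161848 and -0.09 for NM_011361, beside SDs of 0.26 and 0.28 among transcripts of similar abundance. Among all 14215 transcripts that passed 3 TPM in either pool, 8.51% were at least 1.5-fold apart, and neither main row was among them. The low row NM_001161849 was past that limit, with a log2 ratio of 0.87 and an SD of 1.02 at its abundance, but it never reached 3 TPM.

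The Sgk1 rows differ mainly at their first exons. They begin on chromosome 10, plus strand, at 21882184 (NM_001161845), 21978672 (NM_001161848 and NM_001161847, which the annotation matches to the same transcript), 21992223 (NM_001161849), 21993890 (NM_001161850) and 21994666 (NM_011361). Between 6.76% (NM_011361) and 26.4% (NM_001161845) of the 31-base stretches of an annotated Sgk1 transcript occur in none of the others listed. The split among them thus rests on the smaller part of each sequence, as for Tsc22d3. NM_001161848 and NM_001161847 share every stretch in this annotation, and no base there separates the 19.8 TPM of the one with alum alone from the 0 of the other.

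The DNA before these starts was read because the receptors bind a palindrome of AGAACA and TGTTCT with 3 bases of any kind between them. For the rows at these starts the data list levels that kallisto estimated, with the limits given above. RefSeq promoter windows of GRCm38.p6, each of 300 bases from 250 before to 50 after a start, were searched on both strands, and 16 windows of 8 of the genes were found, for all but Nr3c1 and Zbtb16. The palindrome was in 1 of the 16 windows, the one at the NM_001161850 start of Sgk1, and in 3 of all 32851 windows (0.00913%). The looser form, GNACA and TGTNC with the same spacing, overlaps it, was in the same window only, and was in 0.475% of all windows. The single element TGTTCT, which is also part of the palindrome, was in 4 of the 16 windows and in 19% of all windows. The 3 stretches below are the 250 bases before the palindrome-bearing start and before the 2 starts that carry most of the Sgk1 signal, which lie within introns of Sgk1 rows that begin further upstream and overlap no annotated exon. Capitals mark the palindrome and TGTTCT on either strand.
NM_001161850 start, chr10:21993640-21993889, plus strand: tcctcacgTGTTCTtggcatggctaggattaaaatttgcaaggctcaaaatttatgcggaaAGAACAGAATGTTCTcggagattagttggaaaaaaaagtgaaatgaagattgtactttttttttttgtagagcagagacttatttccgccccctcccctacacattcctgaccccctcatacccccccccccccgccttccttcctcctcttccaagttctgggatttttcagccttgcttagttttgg
NM_001161848 start, chr10:21978422-21978671, plus strand: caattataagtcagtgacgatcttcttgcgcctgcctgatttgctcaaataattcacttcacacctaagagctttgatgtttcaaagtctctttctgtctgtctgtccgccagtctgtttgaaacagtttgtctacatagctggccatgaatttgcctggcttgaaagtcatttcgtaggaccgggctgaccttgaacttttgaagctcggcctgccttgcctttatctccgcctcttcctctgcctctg
NM_011361 start, chr10:21994416-21994665, plus strand: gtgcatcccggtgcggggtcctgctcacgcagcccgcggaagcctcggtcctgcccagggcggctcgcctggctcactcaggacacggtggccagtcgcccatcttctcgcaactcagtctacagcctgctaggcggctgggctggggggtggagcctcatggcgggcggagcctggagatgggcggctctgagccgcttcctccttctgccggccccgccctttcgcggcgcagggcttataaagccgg

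The palindrome, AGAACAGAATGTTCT, begins 189 bases before the NM_001161850 start, and another TGTTCT match begins 242 bases before it. The transcript of that start was at 0.582 TPM with alum alone and 0.243 TPM with KLH added, 1.42% and 0.537% of the Sgk1 total. The windows of the 2 main starts held none of the 3 letter patterns. The palindrome found also lies upstream of the main NM_011361 start at 21994666, outside its window, which opens at 21994416. TGTTCT was also found 195 bases before the NM_001161845 start and 13 bases before the NM_001161849 start of Sgk1, and 185 bases before the start of Tsc22d3 at 140600522 on chromosome X, which lies 137 bases from that of NM_001077364, the row listed at 0. A match is a description of the letters and not of binding, and elements outside these windows were not searched.

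Fkbp5 encodes a co-chaperone that lowers the hormone affinity of the receptor and is itself switched on by it. It was at 20.8 TPM with alum alone and 20.7 TPM with KLH added, and its log2 ratio was -0.01 (SD among genes of similar abundance 0.18). Its row, NM_010220, lies on chromosome 17 from 28399094 to 28486149 on the minus strand and has 11 exons. None of its 31-base stretches occur in transcripts of other genes.

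Klf9 encodes a zinc finger transcription factor that corticosteroids induce in the nervous system. It was the second most abundant of the 10 genes, at 128.1 TPM with alum alone and 117.1 TPM with KLH added. The log2 ratio of -0.13 compared with an SD of 0.12. Zbtb16, which encodes the transcription factor PLZF, was at 2.59 and 3.25 TPM, below the threshold of 3 TPM in the first pool and above it in the second. Its log2 ratio of 0.25, the largest of the 10 with 1 TPM added, was less than the SD of 0.51 among genes as low as it is. With 0.5 TPM added it was 0.28, below the 0.29 of Hsd11b1. The levels of these targets differed far more between the genes than between the pools.

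Ddit4 encodes REDD1, an inhibitor of the growth kinase mTORC1 that both stress and glucocorticoids induce. It was at 36.3 TPM with alum alone and 31.5 TPM with KLH added, and the log2 ratio of -0.20 was 1.28 times the SD of its neighbours in abundance (0.16). Errfi1 encodes an inhibitor of the epidermal growth factor receptor and was at 58.2 and 60.7 TPM, with a log2 ratio of 0.06 (SD 0.12). For Sgk1, Klf9 and Ddit4 the ratio was larger than the SD, and for the other 7 genes it was smaller. The share of all genes past their own SD was not computed, so this count does not set these genes apart. Beside the same SDs, Sgk1 was smaller when taken relative to Hprt (0.05) and Klf9 when the pools were rescaled to a common median (-0.11). Relative to Hprt, Klf9 (-0.21) and Ddit4 (-0.28) were larger in size than with TPM as deposited. At the common median, Sgk1 (0.15) was larger and Ddit4 (-0.18) smaller than with TPM as deposited, each still past its SD. Of the 3027 genes with a mean of 30 to 100 TPM, the class that holds Ddit4, Errfi1, Sgk1 and Nr3c1, 0.760% were 1.5-fold apart.

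Ordered by gene total in TPM, which is per transcript length, the alum-injected pool ran Tsc22d3, Klf9, Errfi1, Sgk1, Ddit4, Nr3c1, Fkbp5, Nr3c2, Zbtb16, Hsd11b1. Tsc22d3 stood first through its noncoding row. Its coding row NM_010286, at 34.8 and 33.6 TPM as kallisto divided the reads, was below Klf9, Errfi1 and Sgk1 in both pools and near Nr3c1. The order was the same in the alum + KLH-immunized pool except that Nr3c1 stood before Ddit4. Of the neighbours in this order of gene totals, only Ddit4 and Nr3c1 had overlapping values over the 2 pools.

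**Figure D3:**
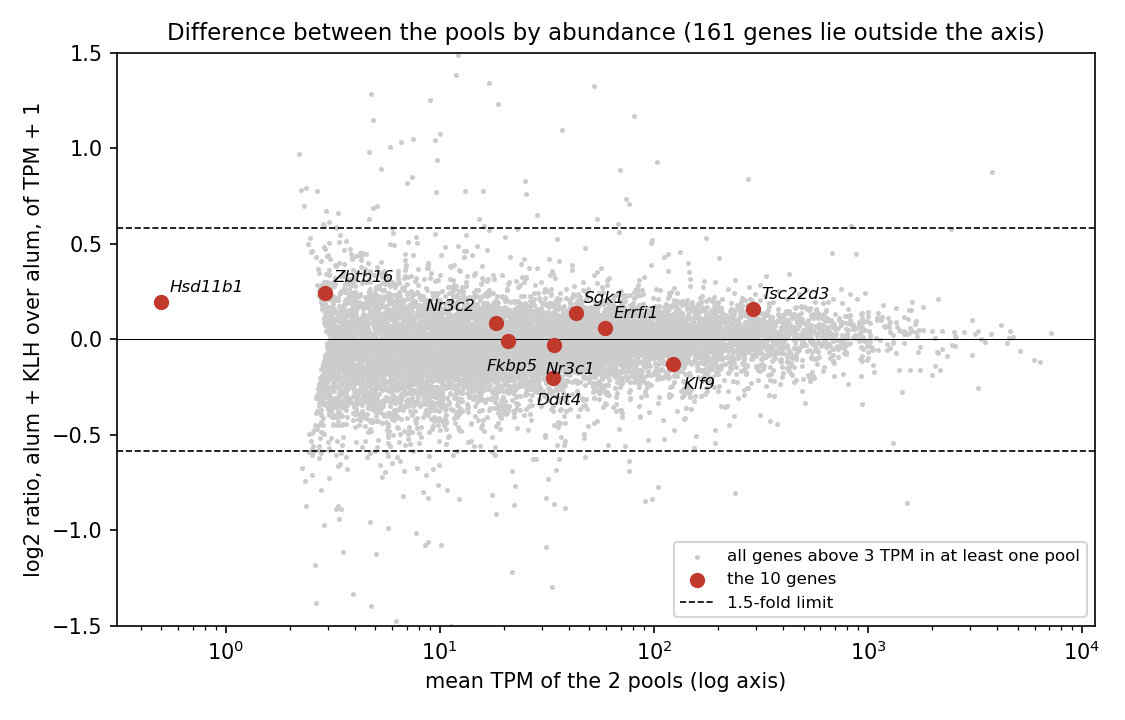
Log2 ratio of alum + KLH over alum, computed on TPM + 1, against the mean TPM of the 2 pools (log axis), for all 11648 genes that passed 3 TPM in either pool (grey points) and the 10 genes (red points), with 161 genes outside the axis of ±1.5. The red points lie between -0.20 and 0.25, inside the dashed lines of the 1.5-fold limit.

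The chaperones that hold the receptor ready for hormone were abundant. All 13 listed genes were above 3 TPM in both pools, 0 were 1.5-fold apart beside 2.56% of all genes, and the median log2 ratio was -0.02. For this list and each of those that follow, a count of 0 is close to that background and is not a result about the list. Hspa8, the constitutive HSP70, was at 4511 TPM with alum alone and 4459 TPM with KLH added. Hsp90aa1 was at 3719 and 3795 TPM. Hsp90ab1, the constitutive HSP90, was at 2115 and 1858 TPM. Stip1, which hands the receptor from HSP70 to HSP90, was at 179.7 and 154.1 TPM, with the lowest log2 ratio of the list (-0.22). Bag1 had the highest, 0.14, at 296.7 and 326.4 TPM.

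The coregulators that carry the receptor signal to chromatin were at lower levels. Of 16 listed genes, 15 were above 3 TPM in both pools and 0 were 1.5-fold apart beside 2.56% of all genes, with a median log2 ratio of -0.05 over the 15. Ncor1, a corepressor, was the highest at 94.4 TPM with alum alone and 90.9 TPM with KLH added. Crebbp, an acetyltransferase, was at 5.56 and 4.43 TPM and had the lowest log2 ratio, -0.27, beside an SD of 0.23 among genes of similar abundance.

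Of 11 genes listed under the synthesis, conversion, binding or export of corticosteroids, 5 were above 3 TPM in both pools, and 0 of those were 1.5-fold apart. Whether each of them acts on corticosteroids in these cells was not tested. The highest were Srd5a3, at 45.6 TPM with alum alone and 43.8 TPM with KLH added, and the steroid 5-alpha-reductase gene Srd5a1, at 14.4 and 14.6 TPM. The steroid-exporting pump genes Abcb1a and Abcb1b were at 6.79 and 5.78 TPM and at 4.14 and 5.34 TPM in the same order, with log2 ratios of -0.20 and 0.30. Their SDs among genes of similar abundance were 0.22 and 0.23. Star, which encodes the protein that brings cholesterol into mitochondria for steroid synthesis, was at 6.68 and 6.02 TPM (log2 ratio -0.13, SD 0.22). The steroid-synthesis genes Cyp11a1 and Cyp11b1 and the plasma carrier gene Serpina6 were listed at 0 in both pools. Hsd11b2, whose product inactivates corticosterone, was at 0.0353 and 0.121 TPM.

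A wider list of 44 genes that corticosteroids are known to induce held 32 above 3 TPM in both pools. Of these 32, 0 were 1.5-fold apart beside 2.56% of all genes. Of the 32, 13 had the higher value in the alum + KLH-immunized pool and 19 the lower, where 43.6% of all genes were higher, and the median log2 ratio was -0.01. The 5 of the 32 with the largest log2 ratio in either direction were all lower in the alum + KLH-immunized pool. That depends on the cut and the filter. The next, Cited2, was higher there, at 28.9 TPM with alum alone and 34.6 TPM with KLH added (0.26, SD 0.17). Arrdc2, below 3 TPM at 0.493 and 1.08 TPM, had a log2 ratio of 0.48. The metallothionein gene Mt2 was at 224.6 TPM with alum alone and 161.4 TPM with KLH added (log2 ratio -0.47, SD among genes of similar abundance 0.16). Mt1 was at 147.3 and 121.8 TPM (-0.27, SD 0.13). Metallothioneins bind metal ions and respond to metals as well as to glucocorticoids. Anxa1, which encodes the anti-inflammatory protein annexin A1, was at 5.77 and 4.22 TPM (-0.37, SD 0.24). The stress genes Gadd45g and Gadd45b were at 7.18 and 5.59 TPM and at 30.5 and 25.1 TPM, with log2 ratios of -0.31 and -0.27. The most abundant members, Tiparp at 302.5 and 299.9 TPM and Glul, the glutamine synthetase gene, at 302.3 and 292.7 TPM, had ratios of -0.01 and -0.05.

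Genes that glucocorticoids are known to repress were mostly low, with 5 of 16 above 3 TPM in both pools and 0 of those 1.5-fold apart. Among those 5 were the inflammatory genes Cxcl10, at 291.4 TPM with alum alone and 335.8 TPM with KLH added, Ccl2, at 247.4 and 285.5 TPM, and Il6, at 107.9 and 126.3 TPM. Their log2 ratios were 0.20, 0.21 and 0.23, beside SDs of 0.19, 0.19 and 0.12 among genes of similar abundance. Cxcl1 was at 20.0 and 19.9 TPM and Vcam1 at 9.85 and 10.5 TPM. The median over the 5 was 0.20, and over all 16 listed genes 0.021.

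**Figure D4:**
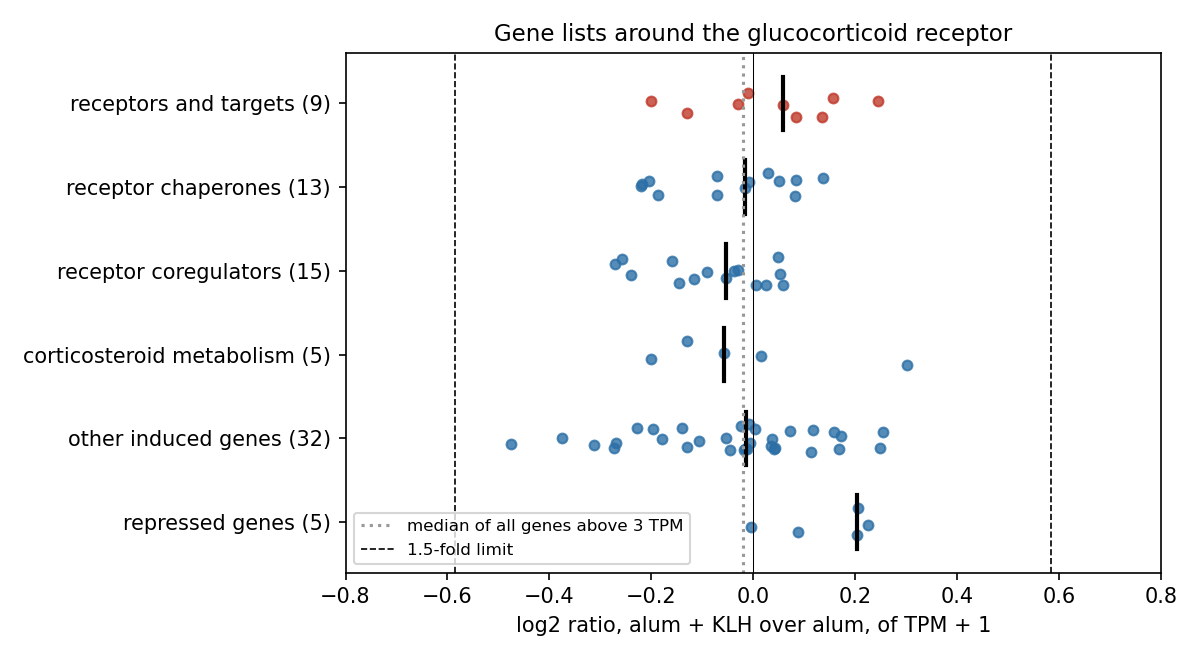
Log2 ratio of alum + KLH over alum, computed on TPM + 1, for genes that passed 3 TPM in either pool, by gene list with the number of genes plotted. Black bars are list medians, from -0.06 for corticosteroid metabolism to 0.20 for repressed genes; the dotted line is the median of all genes (-0.020), and all points lie inside the dashed lines of the 1.5-fold limit.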

How the data were processed

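RNA-seq libraries were made from pooled DRG neurons of alum-injected and alum + KLH-immunized mice, 1 per group. Per the study's methods and the submitters' processing notes, paired-end reads of stranded libraries were made with bcl2fastq, trimmed with cutadapt and assigned by kallisto to mm10 transcripts (versions not given in the sources used here), and the authors gave the result as TPM for each RefSeq row. The study's methods give a minimum read depth common to both samples, but reads per transcript cannot be recovered from TPM, so no counting interval was computed.

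TPM was summed per symbol. The log2 ratio sets the KLH library over the alum library after 1 TPM was added to each, and its SD was taken over the 500 genes (or transcripts) of nearest mean log2(TPM + 1). No test was possible with 1 library per group. A gene counted as apart at 1.5-fold, and 3 TPM in at least one pool was the filter. The 10 genes and the gene lists were chosen with earlier results of these data known. Of each list, the 3 most abundant genes and up to 5 with the largest ratio above 3 TPM could be named, and the text names some of these. Hsd11b2, Cyp11a1, Cyp11b1, Serpina6, Cited2 and Arrdc2, and the motif-bearing genes, were named after their values were seen. One listed gene is not reported here.

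All 18 rows were matched to GENCODE M21 through its RefSeq table, and 31-base stretches were compared in either orientation with its transcripts. Promoter sequences are from RefSeq (GRCm38.p6). Alternatives changed the pseudocount, filter, threshold, scaling, fold limit and choice of rows. Calculations used Python 3.11.15, numpy 2.4.6, pandas 2.3.3 and matplotlib 3.10.9. The ratio and the 1.5-fold call were tested on simulated data, only for genes above 10 TPM and with changes larger than that limit. The sequence comparisons were not part of that test.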

Additional observations from a re-analysis of the deposited data

How the results depend on the processing

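Over 13 alternatives, 118 of 122 recomputed values stayed close to those reported, which means within the SD among genes of similar abundance for a ratio and within 1.5 times for a count. Many of these values could not move. A filter does not enter a ratio, a choice of rows cannot change a gene with 1 row, and a higher fold limit cannot add calls. The tally of 118 thus overstates how far the results were put to the test. None of the 10 genes was past the fold limit under the alternatives run, each of which added a pseudocount, and a lower fold limit was run only with 1 TPM added. On TPM as deposited, Hsd11b1 was at 151% of its value with alum alone. With a pseudocount of 0.1 TPM the log2 ratio of Hsd11b1 moved to 0.49, and on the highest transcript alone that of Sgk1 moved to 0.26. Tsc22d3 moved to -0.047 when TPM were rescaled over protein coding rows, and to -0.049 when coding rows alone were summed, an alternative chosen after seeing the data, because its noncoding row is then left out. The sign also turned for Fkbp5 with pools rescaled to a common median (0.0069) and for Errfi1 relative to Hprt (-0.02), both near 0. With the filter at 10 TPM, Zbtb16 and Hsd11b1 gave no value. No paired analysis was possible because each group has 1 library, and no replicate could be left out. As TPM holds no read counts, the counting error of Zbtb16, Hsd11b1 and the minor Sgk1 transcripts could not be given. The median over the 10 genes ran from -0.010 (relative to Hprt) to 0.090 (common median).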

Other observations

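Genes of the estrogen and progesterone receptors were also read. Esr1, for estrogen receptor alpha, was at 18.7 TPM with alum alone and 21.9 TPM with KLH added, and Pgr, for the progesterone receptor, at 10.4 and 12.5 TPM. Their log2 ratios were 0.22 and 0.24, beside SDs of 0.18 and 0.22 among genes of similar abundance. Esr2, for estrogen receptor beta, was below 3 TPM at 2.96 and 2.81 TPM.

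Of the 36 genes in the wider induced list with a promoter window, 2 held the looser form of the receptor palindrome, GNACA and TGTNC with 3 bases between them, namely Mt1, at 147.3 and 121.8 TPM, and Trim63, at 0.139 and 0.208 TPM. Besides Sgk1, the full palindrome was found in windows of Acnat2, listed at 0 in both pools, and of Gm35041, for which no value was used here.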
